A study of Mus musculus with 24 samples.

Results

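Kallikreins are secreted serine proteases, and a group of them is made by the differentiating keratinocytes of epidermis and hair follicle, where they cleave the corneodesmosomes that hold dead cells together. KLK5 can activate itself and the proforms of KLK7 and KLK14, so the family works as a cascade, and LEKTI, the product of Spink5, inhibits several of its members. Loss of Spink5 causes Netherton syndrome, in which the stratum corneum is shed too early. The 9 genes described here are 8 kallikreins (Klk5, Klk6, Klk7, Klk8, Klk10, Klk11, Klk13 and Klk14) and Spink5, of 22065 genes tested. They were chosen by name as the epidermal members of the family, and each was represented by the probe with the highest mean log2 signal over all 24 arrays. That choice used signal levels, so the levels below are a description. All 9 genes were well above background on all 24 arrays, and none was lost to the filter on dim probes. The large fall of Klk14 with PEE was already known when the members were listed.

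Vibrissa (whisker) follicles of B6C3F1 mice at postnatal day 9 were cultured for 24 h in RPMI 1640 medium with 10% fetal bovine serum, and RNA of 10 follicles made each sample. The 8 groups were a control, PEE (panthenyl ethyl ether) at 0.3%, PH (pyridoxine hydrochloride) at 0.015%, TA (tocopherol acetate) at 0.024%, the pairs PEE-PH, PEE-TA and PH-TA, and all 3 compounds together (PEE-PH-TA), with each compound at the same concentration in every mixture. Each group had 3 arrays from 3 independent experiments. A whole follicle holds several cell types, so fewer cells of a type and less RNA per cell cannot be told apart here. Values are log2 of the processed signal minus the log2 of the array's 75th percentile, called the relative log2 signal below, so that 0 is the 75th percentile of that array. Tests are limma's moderated test in 1 fit of all 24 arrays with Benjamini-Hochberg adjustment over all genes tested, and a gene was called when its adjusted p was under 0.05.

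Markers of the labelled tissue were measured. All 10 inner root sheath markers, all 10 hair shaft markers and all 10 basal and outer root sheath markers passed the filter on dim probes, as did 17 of 18 markers of cornifying epidermis, with Krt77 the exception. The 75th percentile of the signal ranged from 141.8 to 147 in the PEE arrays, from 155 to 190 in the controls, from 199 to 217 in PEE-PH and from 203 to 248 in PH-TA, so overall brightness moved with the groups. From 58.3% to 62.5% of spots were well above background. Array signal was also fitted as a covariate, and calls that ended in that fit are given below. Because the signal moved with the groups, lost precision and a part of the signal in a difference cannot be told apart there.

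The 8 kallikreins lie in 1 cluster on mouse chromosome 7. In the mm9 coordinates of the array's annotation, their probes ran from Klk14 at chr7:50950330-50950389 to Klk5 at chr7:51106492-51106551, a distance of 156 kb, in the order Klk14, Klk13, Klk11, Klk10, Klk8, Klk7, Klk6 and Klk5. The probes are 60 bases long, and whether they lie in coding or untranslated sequence was not analysed here. The 250 bases before the RefSeq start site (GRCm38.p6, plus strand) are shown for the 3 of these 8 kallikreins with the largest average fall under PEE and for Klk7, whose average PEE effect was not called but which was lower in the pairs. The window of Klk14 is chr7:43690168-43690417, that of Klk13 chr7:43712317-43712566, that of Klk6 (the first of its 2) chr7:43824294-43824543 and that of Klk7 chr7:43811044-43811293, and capitals mark a GC box (GGGCGG on either strand).
Klk14: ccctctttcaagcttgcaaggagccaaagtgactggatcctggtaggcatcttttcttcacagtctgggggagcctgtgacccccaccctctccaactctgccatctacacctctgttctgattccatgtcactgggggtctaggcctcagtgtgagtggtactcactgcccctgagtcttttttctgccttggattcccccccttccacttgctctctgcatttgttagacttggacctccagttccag
Klk13: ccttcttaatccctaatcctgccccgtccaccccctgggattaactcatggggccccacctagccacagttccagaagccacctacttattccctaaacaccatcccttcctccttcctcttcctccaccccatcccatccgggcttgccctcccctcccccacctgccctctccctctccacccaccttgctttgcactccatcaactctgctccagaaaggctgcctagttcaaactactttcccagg
Klk6: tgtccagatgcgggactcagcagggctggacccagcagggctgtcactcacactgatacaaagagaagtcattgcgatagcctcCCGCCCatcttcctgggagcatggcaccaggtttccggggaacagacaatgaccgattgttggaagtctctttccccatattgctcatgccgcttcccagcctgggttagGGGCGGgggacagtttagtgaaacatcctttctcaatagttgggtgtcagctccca
Klk7: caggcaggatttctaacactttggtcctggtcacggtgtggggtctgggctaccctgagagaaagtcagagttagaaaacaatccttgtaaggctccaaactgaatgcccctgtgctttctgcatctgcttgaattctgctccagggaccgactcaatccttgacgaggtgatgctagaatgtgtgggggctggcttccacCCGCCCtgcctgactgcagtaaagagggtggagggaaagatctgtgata

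RefSeq listed 10 such windows for the 8 kallikreins. A GC box was found in 4 of the 10, in Klk8, Klk7 and both Klk6 windows, against 32.7% of 32851 windows of the same length over all genes. A TATA box (TATAAA), an AP-1 motif (TGANTCA) and the core of the antioxidant response element (TGACNNNGC) were found in 0 of the 10, against 12.4%, 6.75% and 10.2% of all windows, each searched on both strands. The window of Klk14, which changed most, held none of these 4 motifs.

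**Figure D1:**
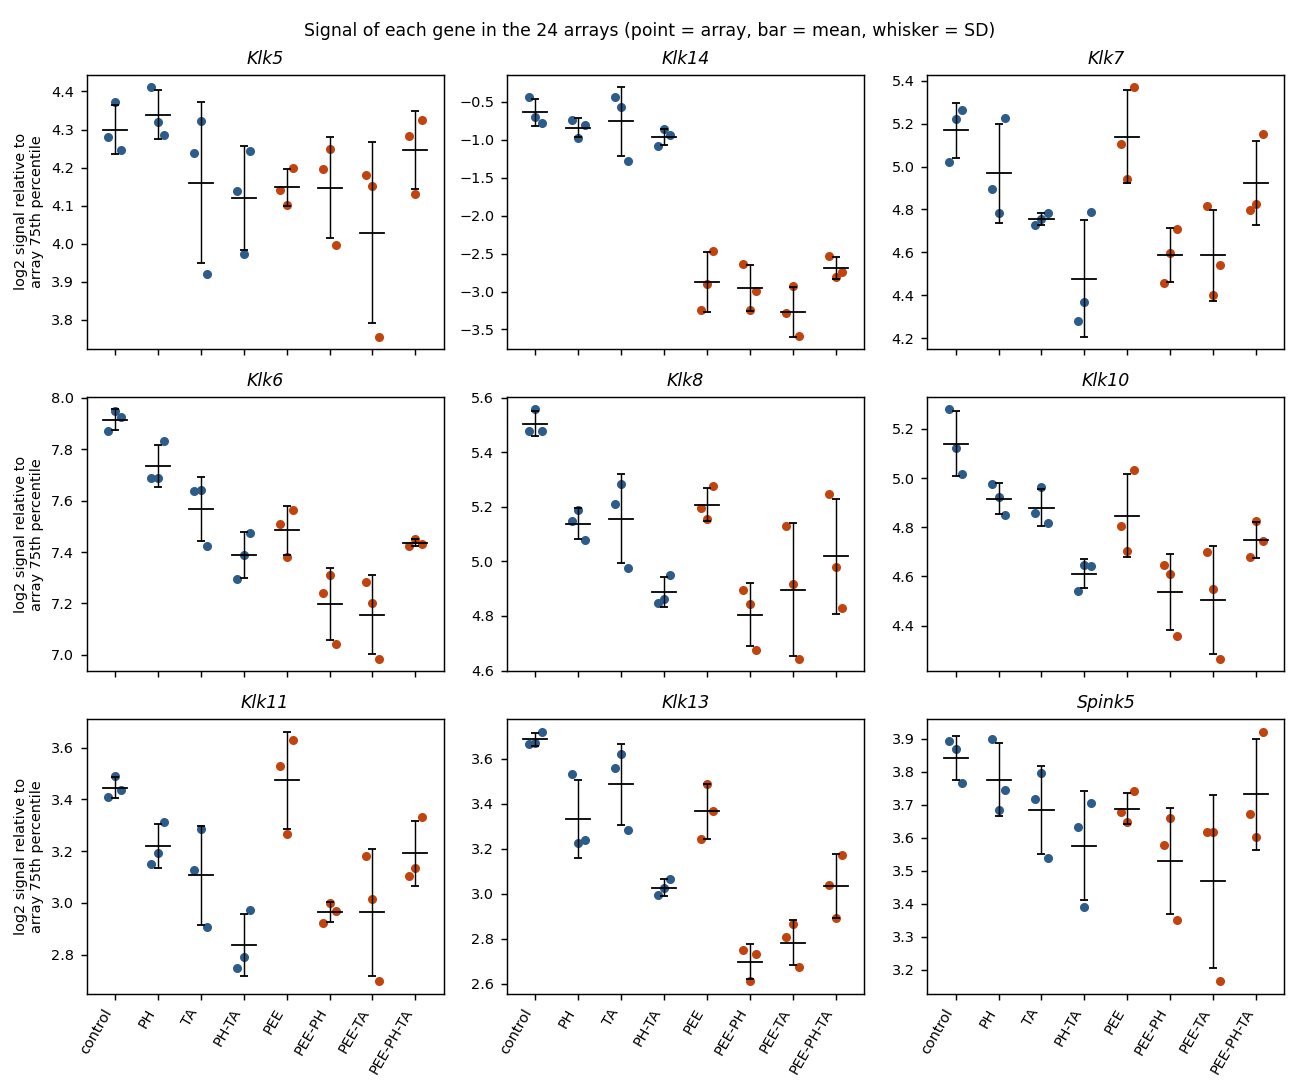
Relative log2 signal of the 9 genes (1 panel each, own vertical scale) in the 8 groups; each point is an array, bars are means of 3 arrays and whiskers the SD, with groups without PEE in blue and with PEE in orange. Klk14 is the panel in which the 12 orange points, from -3.58 to -2.46, all lie below the 12 blue ones, from -1.28 to -0.43.

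Klk14, a trypsin-like protease that can activate the receptor PAR2, was lower in every group that received PEE. Its relative log2 signal was -0.43, -0.70 and -0.78 in the control arrays, -0.75, -0.98 and -0.80 with PH, -0.44, -0.56 and -1.28 with TA, and -1.08, -0.86 and -0.94 under PH-TA. In the PEE groups it was -3.25, -2.90 and -2.46 with PEE alone, -2.63, -3.24 and -2.99 under PEE-PH, -3.29, -2.92 and -3.58 under PEE-TA, and -2.53, -2.80 and -2.74 under PEE-PH-TA. The 12 arrays with PEE and the 12 without did not overlap, and Klk14 was the only one of the 9 genes with that separation. Outside the 9, Ctsd (higher with PEE) and Krt79 (lower) also separated, and the share among all genes tested was not counted. Within the PEE groups and within the groups without PEE, neighbouring groups in the order of means overlapped.

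The unscaled signal of Klk14 ran from 14.8 to 141, against a lowest well-above-background signal of 4.28 to 4.68 per array, so the probe was measurable everywhere but dim. Averaged over the 4 backgrounds, PEE lowered Klk14 by a log2 difference of -2.14 ± 0.11 (SE, 12 arrays against 12, 95% interval -2.38 to -1.91, adjusted p = 7.3e-11), or 4.42-fold. With normexp background correction and an offset of 50, the same difference was -0.96 (adjusted p = 2.44e-12), while the quantile-normalized value was -2.15. Within the 3 slides, each of which held 1 array of every group, it was -2.25, -2.19 and -1.99. The call held under each of the alternatives run, but its size rested on the background correction and its offset. That offset of 50 exceeds the mean unscaled signal of Klk14 with PEE alone (20.1) and is below that in the controls (112). Adding a constant shrinks log2 differences of a dim probe, and its part was not separated from that of the correction.

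Against control, the log2 difference of Klk14 was -2.23 ± 0.22 (SE) with PEE, -2.32 under PEE-PH, -2.63 under PEE-TA and -2.05 under PEE-PH-TA, with adjusted p of 2.92e-06, 1.04e-06, 5.7e-07 and 8.34e-06. Those 4 comparisons share the control arrays. In the authors' deposited table the PEE difference was -2.30. Without PEE, the difference was -0.20 with PH (95% interval -0.67 to 0.26), -0.12 with TA (-0.58 to 0.34) and -0.32 under PH-TA (-0.79 to 0.14), and none passed the test. Where PEE was added to another compound, the log2 difference of Klk14 was -2.11 from the level with PH, -2.51 from that with TA and -1.73 from that under PH-TA, with adjusted p of 7.51e-06, 9.81e-07 and 7.14e-05. Among all genes tested, the SD of Klk14 over the 8 group means was at the 99.9th percentile.

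Klk13, another trypsin-like member and the neighbour of Klk14 on the chromosome, was highest in the controls and lowest in PEE-PH and PEE-TA. Its relative log2 signal was 3.67, 3.67 and 3.72 in the controls, 3.53, 3.22 and 3.24 with PH, 3.56, 3.62 and 3.28 with TA, and 3.25, 3.49 and 3.37 with PEE. In the mixtures it was 2.75, 2.61 and 2.73 under PEE-PH, 2.81, 2.87 and 2.68 under PEE-TA, 2.99, 3.02 and 3.07 under PH-TA, and 3.04, 2.89 and 3.17 under PEE-PH-TA. No control array overlapped any treated array, and all arrays of PEE-PH and PEE-TA lay below those of the other 6 groups. The level with all 3 compounds overlapped that under PH-TA.

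The log2 difference of Klk13 from control was -0.99 ± 0.10 (SE, adjusted p = 1.65e-06) under PEE-PH, -0.90 (9.39e-06) under PEE-TA, -0.66 (0.000259) under PH-TA and -0.65 (0.000212) under PEE-PH-TA. With a compound alone it was -0.32 with PEE (adjusted p = 0.0442), -0.35 with PH (0.044) and -0.20 with TA (0.315). The PEE call ended when any of 12 of the 24 arrays was left out (adjusted p 0.0507 to 0.167), and the PH call when any of 11 was (0.0502 to 0.209). With slide as a block both calls ended, at adjusted p of 0.0534 and 0.0513. With overall array signal as a covariate the PEE, PH and PH-TA calls ended, at differences of -0.30 (adjusted p = 0.242), -0.36 (0.0773) and -0.69 (0.0616). On average over backgrounds Klk13 fell by 0.41 on the log2 scale with PEE, by 0.31 with PH and by 0.19 with TA, the only member called in all 3 (adjusted p = 5e-06, 0.00025 and 0.0284). These falls did not extend to every background. The mean under PEE-PH-TA (3.03) was no lower than under PH-TA (3.03), PEE-TA (2.78) or PEE-PH (2.70). The TA call ended without control replicate 3, PH-TA replicate 1 or PEE-PH replicate 3, at adjusted p of 0.0548, 0.0513 and 0.0522.

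Klk6, which encodes neurosin, a trypsin-like protease, followed a similar order. Its relative log2 signal was 7.87, 7.95 and 7.92 in the controls, 7.51, 7.38 and 7.57 under PEE, 7.69, 7.69 and 7.83 under PH, and 7.64, 7.64 and 7.42 with TA. The mixtures gave 7.24, 7.31 and 7.04 under PEE-PH, 7.28, 7.20 and 6.98 under PEE-TA, 7.30, 7.39 and 7.48 under PH-TA, and 7.42, 7.45 and 7.43 under PEE-PH-TA. Every control array was above every treated array, the PH arrays came next without overlapping any other group, and the remaining neighbours in the order overlapped. Against control the log2 difference was -0.43 ± 0.09 (SE, adjusted p = 0.00357) with PEE, -0.72 (9.63e-06) under PEE-PH, -0.76 (1.43e-05) under PEE-TA, -0.53 (0.000432) under PH-TA and -0.48 (0.000944) under PEE-PH-TA.

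The difference of Klk6 with TA alone was -0.35 (adjusted p = 0.0455), a call that ended when any of 16 of the 24 arrays was left out (0.051 to 0.189) and with slide as a block (0.052). That with PH alone was -0.18 and was not called (adjusted p = 0.246). With the array's overall signal as a covariate the calls of Klk6 for PEE, TA and PH-TA ended, at differences of -0.38 (adjusted p = 0.0716), -0.37 (0.0722) and -0.61 (0.0548).

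Klk7, the chymotrypsin-like protease of the stratum corneum that cleaves corneodesmosin, was not called with PEE alone or for the average PEE effect. Its relative log2 signal was 5.02, 5.22 and 5.26 in the controls and 5.10, 4.94 and 5.37 with PEE, and these groups overlapped. It was 4.89, 4.78 and 5.22 with PH and 4.73, 4.76 and 4.78 with TA. The mixtures gave 4.46, 4.60 and 4.71 under PEE-PH, 4.82, 4.40 and 4.54 under PEE-TA, 4.28, 4.37 and 4.79 under PH-TA, and 4.80, 4.82 and 5.15 under PEE-PH-TA. The arrays of all 3 pairs lay below every control array, while those of PEE-PH-TA overlapped the controls.

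For Klk7 the log2 difference from control was -0.03 with PEE (95% interval -0.34 to 0.29), -0.58 ± 0.15 (SE, adjusted p = 0.00588) under PEE-PH, -0.58 (0.00892) under PEE-TA, -0.69 (0.00275) under PH-TA and -0.25 (0.301) under PEE-PH-TA. The PEE-TA call ended without PEE-TA replicate 2, at a difference of -0.49 and an adjusted p of 0.0555. The average PEE effect was -0.03 (95% interval -0.19 to 0.12), a mean over backgrounds of opposite sign. PEE added to PH gave -0.38 (adjusted p = 0.107) without overlap of the arrays, PEE added to TA -0.17 (0.587) and PEE added to PH-TA 0.45 (0.0555). With slide as a block the first and last of these were called (0.0406 and 0.0182). The average TA effect was -0.28 (adjusted p = 0.0302). This TA call ended when any of 8 arrays was left out (control replicate 3, PH replicate 3, PEE replicate 3, PH-TA replicates 1 and 2, PEE-TA replicate 2, PEE-PH replicate 3 or PEE-PH-TA replicate 1), with adjusted p of 0.0514 to 0.0616. With overall array signal as a covariate the calls of the 3 pairs ended, at -0.41 (adjusted p = 0.196) under PEE-PH, -0.49 (0.0504) under PEE-TA and -0.46 (0.352) under PH-TA. A test of Klk7 against Klk14 itself was not run.

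Klk8, which encodes neuropsin, fell with each pair and with all 3 compounds. Arrays of the controls read 5.48, 5.56 and 5.48 on the relative log2 scale, above every treated array, and its group means ran down from 5.50 to 4.80 in PEE-PH. The difference from control was -0.70 ± 0.11 (SE, adjusted p = 0.000139) under PEE-PH, -0.61 (0.000919) under PEE-TA, -0.62 (0.00093) under PH-TA and -0.49 (0.00591) under PEE-PH-TA. With PEE, PH and TA alone it was -0.30, -0.37 and -0.35, with adjusted p of 0.103, 0.0652 and 0.119, and the PH difference was called with slide as a block (0.0399). The PH-TA call ended with overall array signal as a covariate, at a difference of -0.78 (adjusted p = 0.0577). The average PEE effect was -0.19 (0.0167), and with that covariate it was -0.16 (0.0832).

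Klk10 and Klk11 stand side by side and differed in their PEE values. The relative log2 signal of Klk10 ran from 4.26 to 5.28 over all arrays, with a median of 4.77, and that of Klk11 from 2.70 to 3.63, with a median of 3.14. For Klk10 the controls (5.28, 5.12 and 5.02) overlapped the PEE arrays (4.81, 4.70 and 5.03), and the average PEE effect was -0.23 (adjusted p = 0.00352). For Klk11 the controls (3.41, 3.49 and 3.44) lay within the range of the PEE arrays (3.53, 3.27 and 3.63), and the average PEE effect was -0.00 (95% interval -0.13 to 0.12). For Klk11 that mean joined backgrounds of opposite sign, with 0.03 for PEE alone, -0.25 for PEE added to PH, -0.14 for PEE added to TA and 0.35 for PEE added to PH-TA, none of which was called.

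Against control, Klk10 fell by 0.60, 0.64, 0.53 and 0.39 on the log2 scale under PEE-PH, PEE-TA, PH-TA and PEE-PH-TA (adjusted p = 0.000333, 0.00043, 0.00176 and 0.0168). The last call ended without control replicate 1 (adjusted p = 0.0802) or PEE-PH-TA replicate 1 (0.0666). Klk11 fell by 0.48, 0.48 and 0.61 under PEE-PH, PEE-TA and PH-TA (adjusted p = 0.00419, 0.00663 and 0.00135), and its difference under PEE-PH-TA was -0.25 (0.16). The array holds a second Klk11 probe, and its differences for those groups were -0.52, -0.39, -0.65 and -0.24. The PH-TA call of Klk11 ended with overall array signal as a covariate, at a difference of -0.75 (adjusted p = 0.0803).

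Klk5, which starts the cascade by activating other kallikreins, passed the test in none of the 17 comparisons. Arrays ran from 3.76 to 4.41, with a median of 4.22, and every pair of neighbouring groups overlapped. The differences from control lay between -0.27 under PEE-TA (95% interval -0.51 to -0.03, adjusted p = 0.0893) and 0.04 with PH. Leaving out PEE-TA replicate 1 made the PEE-TA difference -0.35, with an adjusted p of 0.0482. The SD of its 8 group means was 0.10, below the pooled SD of 0.14 between arrays of a group.

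Spink5, the inhibitor, lies on another chromosome and had 1 call against control. On the relative log2 scale it was 3.89, 3.87 and 3.77 in the controls and 3.62, 3.62 and 3.16 under PEE-TA, its lowest group, and every pair of neighbouring groups in the order overlapped. The difference from control under PEE-TA was -0.37 (95% interval -0.63 to -0.12, adjusted p = 0.0314). That call ended without control replicate 1, 2 or 3 (adjusted p = 0.0819, 0.0818 and 0.0527) or PEE-TA replicate 3, when the difference was -0.22 (0.181). With PEE-PH it was -0.31 (adjusted p = 0.0536), or -0.52 and called with overall array signal as a covariate (0.038), and the average PEE effect was -0.12 (95% interval -0.24 to 0.01).

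**Figure D2:**
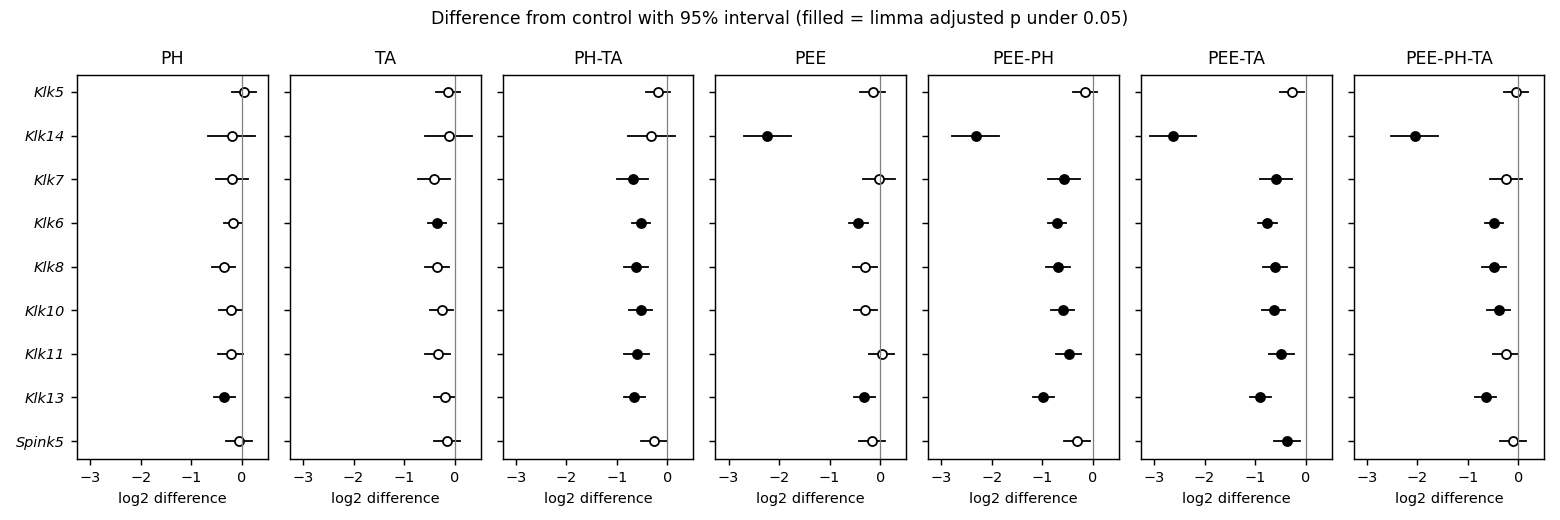
Log2 difference of each gene from control in the 7 treated groups, with 95% intervals from limma; filled circles have an adjusted p under 0.05. The pairs hold most filled circles (7 under PEE-PH, 8 under PEE-TA and 6 under PH-TA), and Klk14 lies far left in the 4 groups with PEE.

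Counted over the 9 genes, calls against control were all decreases. PEE called 3 (Klk6, Klk13 and Klk14) where 10.9% of all genes tested were called in either direction, PH called 1 (Klk13) where 5.25% were, and TA called 1 (Klk6) where 1.83% were. PEE-PH called 7 beside 35.9% of all genes, PEE-TA 8 beside 25.5%, PH-TA 6 beside 29.6% and PEE-PH-TA 5 beside 16.5%. Genes called lower made up 20.9%, 15.3%, 17.5% and 8.72% of all genes in those 4 mixtures.

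The median log2 difference of the 9 genes was -0.60 under PEE-PH, -0.61 under PEE-TA, -0.53 under PH-TA and -0.39 under PEE-PH-TA, against -0.06, -0.05, -0.06 and -0.00 over all genes tested. For PEE, PH and TA alone the medians of the 9 were -0.29, -0.21 and -0.26, against 0.02, -0.02 and -0.02. All 9 differences were below 0 in the 4 mixtures and with TA, and 8 of 9 were for PEE and for PH. These comparisons share the control arrays. With overall array signal as a covariate 1 of the 9 remained called for PEE and 1 for PH-TA, while under PEE-PH and PEE-TA the number stayed within 1.5 times that given above. The 5 PH-TA calls that ended had differences from -0.78 to -0.46 with that covariate, against -0.69 to -0.53 without it.

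**Figure D3:**
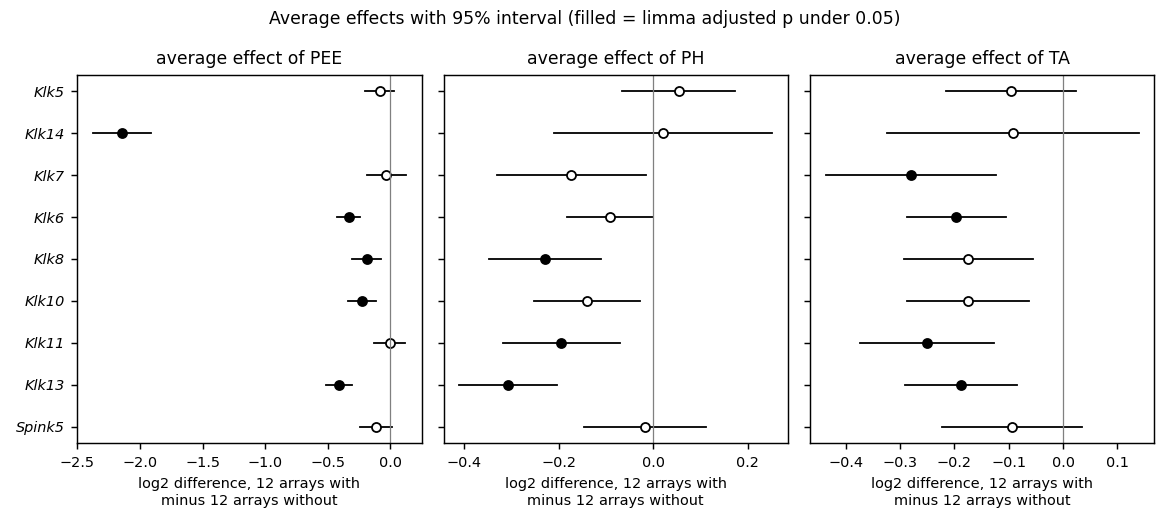
Average effect of each compound on the 9 genes, as the log2 difference between the 12 arrays with it and the 12 without, with 95% intervals; filled circles have an adjusted p under 0.05 and the panels differ in horizontal scale. Klk14 at -2.14 stands apart under PEE, while under TA the largest average fall is that of Klk7 at -0.28.

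Average effects used the whole factorial layout. On average PEE lowered 5 of the 9 genes (Klk14, Klk13, Klk6, Klk10 and Klk8), where 27% of all genes were called and 14.2% were called lower. Of these 5, only Klk14 was lower with PEE in every background. Added to PH-TA, PEE gave 0.01 for Klk13, 0.05 for Klk6, 0.14 for Klk10 and 0.13 for Klk8, none of them called. PH lowered 3 on average, Klk13 by 0.31, Klk8 by 0.23 and Klk11 by 0.19 on the log2 scale (adjusted p = 0.00025, 0.00548 and 0.0182). Of all genes, 31.3% were called there and 17.4% were called lower. These 3 averages joined backgrounds of opposite sign. The means under PEE-PH-TA were above those under PEE-TA, at 3.03 against 2.78 for Klk13, 5.02 against 4.90 for Klk8 and 3.19 against 2.96 for Klk11. TA lowered 4 on average (Klk7 by 0.28, Klk11 by 0.25, Klk6 by 0.20 and Klk13 by 0.19), where 7.99% were called and 5.2% were called lower. Here too the signs differed, with means under PEE-PH-TA above those under PEE-PH. They were 4.92 against 4.59 for Klk7, 3.19 against 2.96 for Klk11, 7.44 against 7.20 for Klk6 and 3.03 against 2.70 for Klk13. PH added to PEE-TA and TA added to PEE-PH were not tested as comparisons of their own. With overall array signal as a covariate none of the PH and TA calls remained, although the PH differences of Klk13, Klk8 and Klk11 were -0.33, -0.32 and -0.28 there, and 4 of the 5 PEE calls did, all but Klk8. With slide as a block Klk7 (adjusted p = 0.0306) and Klk10 (0.0499) were also called for PH, and Klk8 (0.0377) and Klk10 (0.0461) for TA.

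**Figure D4:**
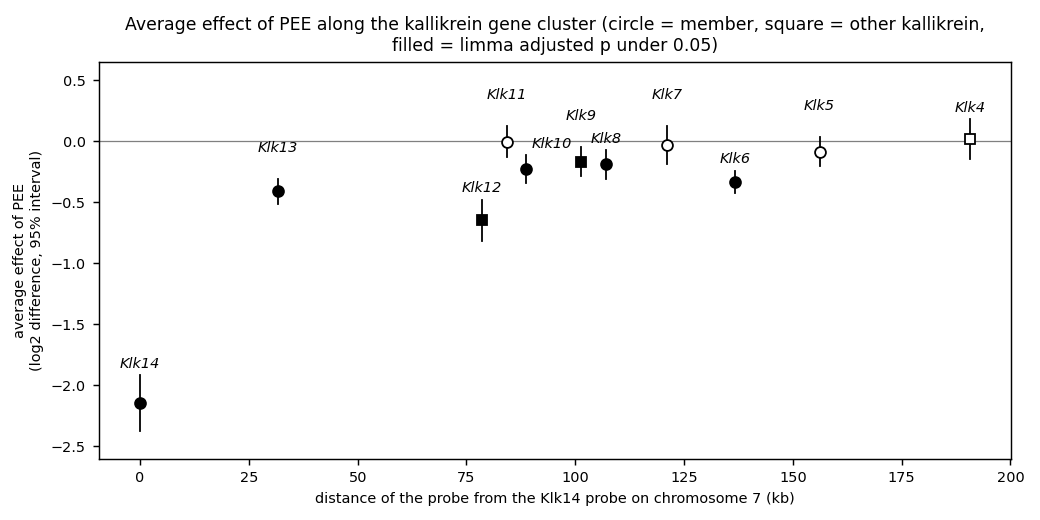
Average effect of PEE (log2 difference with 95% interval) against the distance of each kallikrein probe from the Klk14 probe on chromosome 7 in kb; circles are the 8 kallikreins described here, squares are other kallikreins and filled symbols have an adjusted p under 0.05. Klk14 and Klk13 lie at one end, and the values of Klk11, Klk7, Klk5 and Klk4 are near 0. For each of the 8 except Klk14, the value is a mean over backgrounds of opposite sign (for Klk13, 0.01 where PEE was added to PH-TA).

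Along the cluster, genes that fell on average with PEE and genes that were not called were interspersed. From Klk14 onward, the average PEE effect was -2.14 at Klk14, -0.41 at Klk13, -0.65 at Klk12 (adjusted p = 7.73e-06), -0.00 at Klk11, -0.23 at Klk10, -0.17 at Klk9 (0.0319), -0.19 at Klk8, -0.03 at Klk7, -0.33 at Klk6, -0.09 at Klk5 and 0.02 at Klk4. Klk11 lies between Klk12 and Klk10, both of which fell. Klk12, Klk9 and Klk4 were the nearest measured kallikreins outside the 9.

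Of 18 other kallikreins on the array, 11 passed the filter on dim probes. On average with PEE, 2 fell (Klk12 and Klk9) and 2 were higher (Klk1b5 by 0.69 and Klk1b4 by 0.46, adjusted p = 0.0134 and 0.0282). Their median was 0.21, against 0.01 over all genes. The Klk1b genes are near-identical copies, so their probes may share signal, and Klk1b5 was well above background on 16 and Klk1b4 on 20 of 24 arrays. The mean levels of Klk1b5 and Klk1b4 were at the 4.88th and 5.70th percentile of all genes tested. That is near the floor, so the sizes of these rises are uncertain. Klk1b24, whose value is the median of the list, was at the 7.04th percentile. The other 6 tested Klk1b genes had values from 0.12 to 0.38 and were not called, as was Klk4.

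PEE was then set against each background. Added to PH it lowered 4 of the 9 genes, where 12.6% of all genes were called (Klk14, Klk13 by 0.63, Klk6 by 0.54 and Klk10 by 0.38 on the log2 scale), and all 9 differences were below 0. With slide as a block Klk7 and Klk8 were called too, at adjusted p of 0.0406 and 0.0359. The Klk10 call ended without PH replicate 1 (adjusted p = 0.0871), PH replicate 2 (0.0612) or PEE-PH replicate 3 (0.109). Added to TA it lowered the same 4, where 6.66% were called (Klk13 by 0.70, Klk6 by 0.41 and Klk10 by 0.38). There the Klk6 call ended without PEE-TA replicate 3 (adjusted p = 0.0518), and the Klk10 call when any of 8 arrays was left out (0.0501 to 0.206).

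Added to PH-TA, PEE lowered 1 of the 9 genes, Klk14, where 13.5% of all genes were called. The other 8 differences were above 0, between 0.01 for Klk13 and 0.45 for Klk7 (95% interval 0.13 to 0.76, adjusted p = 0.0555). Klk11 followed with 0.35 (adjusted p = 0.0536). The median over the 9 was 0.13, against 0.05 over all genes. Klk7 passed the threshold when any of 4 arrays was left out (adjusted p 0.0137 to 0.0497) and Klk11 when any of 6 was (0.0315 to 0.0475).

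Interactions asked whether 1 compound's effect changed when another was present. For PEE with PH, 0 of the 9 genes and 0% of all genes were called by limma, with 929 of 22065 genes and 0 of the 9 at an unadjusted p under 0.05. For PEE with TA, 0 of the 9 and 0% of all genes were called, with 3196 genes and 3 of the 9 at an unadjusted p under 0.05. In both, all 9 values were above 0, with medians of 0.18 and 0.22, against 0.02 and 0.02 over all genes. Each interaction is a mean over the 2 states of the third compound, so opposite signs can cancel in it. For Klk13, PEE gave -0.32 alone and -0.63 added to PH, but -0.70 added to TA and 0.01 added to PH-TA. For PH with TA, 2 of the 9 were called, both above 0, where 13.7% of all genes were called. These were Klk13 at 0.41 ± 0.10 (SE, adjusted p = 0.0102) and Klk6 at 0.28 ± 0.09 (0.036). A value above 0 says that PH and TA together lowered the gene by less than the sum of their separate effects. Within the 3 slides the values were 0.15, 0.37 and 0.70 for Klk13 and 0.13, 0.17 and 0.56 for Klk6. The Klk6 call ended when any of 12 arrays was left out (adjusted p 0.0547 to 0.068). With overall array signal as a covariate both calls ended, at 0.42 (adjusted p = 0.0533) and 0.33 (0.0817). With slide as a block both held, and Klk7 (0.0257) and Klk8 (0.0441) were called too.

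**Figure D5:**
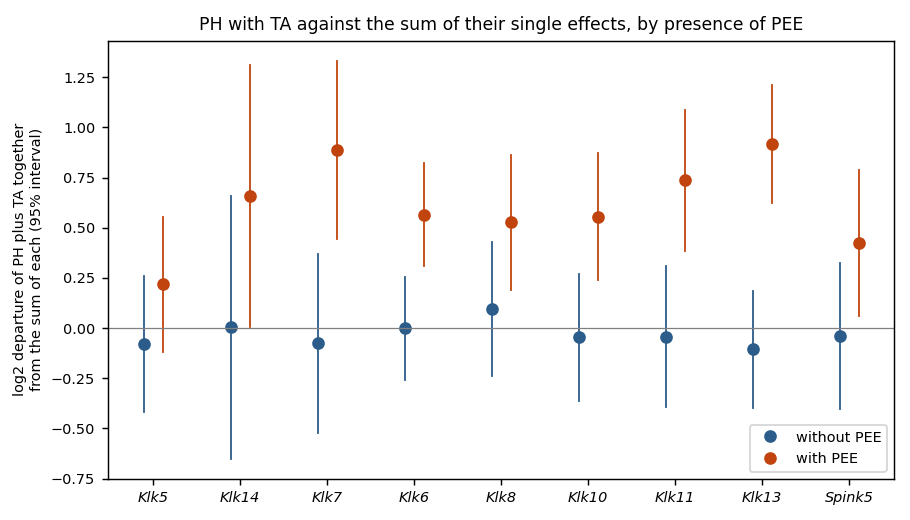
Departure of PH plus TA together from the sum of their separate effects (log2, 95% interval) for the 9 genes, in blue without PEE and in orange with PEE. Without PEE the values lie between -0.11 and 0.10, and with PEE between 0.22 and 0.92.

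Split by PEE, the departure from the sum lay near 0 without PEE and above 0 with it. Without PEE the 9 values ran from -0.11 to 0.10, with a median of -0.04. With PEE all 9 were above 0, from 0.22 for Klk5 to 0.92 for Klk13, with a median of 0.57. In the test of the difference between these states, a comparison chosen after the values were seen, 1 of the 9 was called where 6.79% of all genes were. That gene was Klk13, with a difference of 1.02 ± 0.20 (SE, adjusted p = 0.0101). The same value also measures how the interaction of PEE with PH differed with TA, and that of PEE with TA differed with PH. With slide as a block Klk7 was called too, at 0.96 (0.0206), and with overall array signal as a covariate the Klk13 value was 1.09 and not called (0.589). Adjusted p for the other 8 lay between 0.0532 (Klk11) and 0.408 (Klk5). The median difference was 0.60 over the 9 and 0.11 over all genes tested.

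Markers of other cell types also differed between the groups. Inner root sheath markers rose under PEE-PH (8 of 10 called), PEE-TA (8), PH-TA (9) and PEE-PH-TA (6), and none of the 10 was called with PEE. Of all genes tested, 14.9%, 10.2%, 12.1% and 7.78% were called higher in those 4 mixtures. With PH alone 4 of 10 inner root sheath markers rose and with TA alone 3. Of all genes, 1.6% and 0.399% were called higher there. The median log2 difference of these markers from control was 0.48 with PH, 0.48 with TA and -0.28 with PEE. It was 0.63 under PEE-PH, 0.66 under PEE-TA, 0.70 under PH-TA and 0.56 under PEE-PH-TA. The summed signal of the inner root sheath markers, in multiples of each array's 75th percentile, was 507.5 to 683.4 in the controls, 450.9 to 617.9 with PEE, 923.8 to 968.9 under PEE-PH and 895 to 1014 under PH-TA. In the PH with TA interaction 8 of those 10 were called below 0, where 3.82% of all genes were. Skeletal muscle markers rose too, with 6 of 8 called under PEE-PH, 6 under PEE-TA and 4 under PH-TA, and their summed signal was 22.1 to 27.1 in the controls and 44.5 to 55.3 under PEE-PH.

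Markers of cornifying epidermis, a source of these kallikreins in skin, were called lower in 4 of 17 under PEE-PH, PEE-TA and PH-TA and in 5 under PEE-PH-TA, and 1 of 17 was called higher under PEE-PH and under PH-TA. Their summed signal was 1079 to 1124 in the controls, 986 to 1124 with PEE, 796 to 886 under PEE-PH and 812 to 858 under PH-TA. Of all genes, 20.9%, 15.3%, 17.5% and 8.72% were called lower in those 4 groups, so 4 of 17 in the pairs is near the background. Under PEE-PH-TA, 5 of 17 is a larger share than 8.72%. The median of the list there was -0.36, against -0.00 over all genes. On average with PEE, 5 of 17 fell and 0 rose, where 14.2% of all genes fell, among them Ivl (involucrin) by 0.68 and Krt10 (a keratin of suprabasal cells) by 0.64 on the log2 scale. The basal and outer root sheath list had 6 of 10 lower on average with PEE, led by Krt6b at -0.55 and Krt15 at -0.49. It also had 6 of 10 lower under PEE-PH and under PEE-TA (1 of 10 higher there), and 3 higher and 4 lower under PH-TA. The hair shaft list had 2 of 10 lower on average with PEE, Krt85 at -0.39 and Krt36 at -0.36, but 4 of 10 higher under PH-TA and 6 of 10 higher on average with PH and likewise for TA. Of all genes, 12.1% were called higher under PH-TA, 13.9% on average with PH and 2.78% on average with TA. The part of these marker differences in the kallikrein differences was not tested.

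Other lists completed the picture with PEE. On average with PEE, 12.8% of all genes tested were called higher and 14.2% lower. Sebaceous gland markers had 1 higher (Scd1, 0.40) and 3 lower of 11, with Mc5r and Krt79 each at -0.46. Macrophage markers had 1 higher (Cd68, 0.19) and 3 lower of 6, led by Aif1 at -0.52 and Adgre1 at -0.35. Dermal papilla markers had 1 higher (Alpl, 0.23) and 1 lower (Crabp1, -0.24) of 8, with Corin not tested, and skeletal muscle markers had 1 higher of 8 (Myh4, 0.65).

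Among other protease inhibitors of skin, 9 of 16 tested fell on average with PEE and none rose, with a median of -0.31. Of all genes tested, 14.2% were called lower and 12.8% higher, with a median of 0.01. Spink12 had a log2 difference of -1.36 ± 0.25 (SE, adjusted p = 0.000458) and Spink6, an inhibitor of kallikreins, -1.29 ± 0.17 (1.58e-05). Other proteases of skin had 3 higher and 2 lower of 15, with Ctsd (cathepsin D) at 0.29, Tmprss13 at 0.22, Asprv1 at -0.19 and Plau (urokinase) at -0.17. Of 18 genes for corneodesmosome parts and known kallikrein substrates, 1 was higher and 2 were lower. Camp, the cathelicidin precursor that KLK5 cleaves, was at 0.51 (adjusted p = 0.0128), F2rl1, which encodes PAR2, at -0.58 (6.63e-06), and Dsc1 (desmocollin 1) at -0.19 (0.00972). The other 15 genes of that list, desmogleins and other desmosomal proteins among them, were not called.

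The members varied together to different degrees. Over the 24 arrays, which share the treatments and slides, Pearson's r between pairs of the 8 kallikreins ran from 0.13 to 0.91 with a median of 0.67. After removal of the group means it ran from -0.04 to 0.80 with a median of 0.50. Klk6 with Klk10 had the highest value at 0.91, and Klk14 with Klk11 and with Klk7 the lowest at 0.13 and 0.14. Spink5 followed Klk5 at 0.91, also at 0.92 within groups, and its r with the 8 kallikreins had a median of 0.70.

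The genes most like Klk14 over the 24 arrays were Apobec1 (r = 0.965), Thbs1 (0.942) and Myl9 (0.937), and their average PEE effects were -0.61, -1.13 and -0.81. Those most like Klk13 were Bst1 (0.941), Crip1 (0.938) and P2rx2 (0.938), at -0.59, -0.37 and -0.93. Those most like Klk7 were Ctsl (0.936), Cmpk1 (0.932) and Tomm20 (0.928), at -0.04, -0.02 and -0.04, none of which was called. Because r was taken with the group differences left in, likeness in the PEE effect follows from the choice and is a description.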

How the data were processed

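Gene expression of cultured mouse vibrissa follicles was measured on 24 one-colour arrays. The deposited files give spot intensities that Agilent Feature Extraction 12.0.3.1 had measured and background-subtracted, per the file headers, with flags for spots well above background. The labels name a biotin label, and the scans hold 1 green channel. The authors also deposited a value table on a log2 scale; each of its 24 columns matched its own scan best (r of at least 0.934), its column medians were 3.97 to 4.05, and how it was normalized is not given in the sources used here.

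The steps run here were these. The processed signal of 56605 probes was put on a log2 scale and each array's 75th percentile was subtracted. Replicate spots of a probe were averaged, and 2386 spots flagged as non-uniform or as population outliers were set missing. Probes well above background on all 3 arrays of at least 1 group were kept (33340 probes), and a gene was read from its brightest probe on average (22065 genes, 7686 with several probes). A mean per group was fitted with limma 3.58.1 in R 4.3.3, with 16 residual degrees of freedom and 2.19 prior ones. Adjusted p-values are limma's after Benjamini-Hochberg adjustment within a comparison, with a threshold of 0.05. On simulated data, PEE against control called 50% of genes shifted by 0.5 on the log2 scale and 83% of those shifted by 1, while the average PEE effect called 86% and 97%.

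All 9 genes were named in every comparison. The 2 most raised and 2 most lowered genes of each list, of those called for the average effect of PEE, were named too, along with all other tested kallikreins, and the 3 genes most like each of the 3 members that varied most between groups. The members and lists were chosen with earlier results of these data known. Numbers of arrays and a 3 per group design limit the precision. The labels number the samples 1 to 3, and each number is 1 slide and 1 scan time, with 1 array of each group per slide. Slide was therefore also fitted as a block, and its value stands beside each call it changed. In all 36 alternatives were run for the main comparisons. Promoter windows came from RefSeq (GRCm38.p6), and 8 of the 9 genes had one; protein sequences were not used here.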

Additional observations from a re-analysis of the deposited data

Results flagged for a closer look

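The effect of PH on Klk13 differed with and without TA, by 0.41 ± 0.10 (SE, adjusted p = 0.0102 by limma's interaction term), and had the same sign on all 3 slides. For Klk6 the same interaction was 0.28 ± 0.09 (adjusted p = 0.036). The PH with TA interaction of Klk13 itself differed between the arrays with and without PEE, by 1.02 ± 0.20 (adjusted p = 0.0101), in a comparison chosen after the values were seen. Leaving out the arrays of replicate number 2 or 3 ended the 0.41 call, and leaving out those of number 1 or 2 ended the 1.02 call. With overall array signal as a covariate the 0.41, 0.28 and 1.02 calls all ended.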

How the results depend on the processing

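No called difference of a single member, of 153 differences in all, changed sign under the 36 alternatives, and 5141 of 5445 values kept their side of the threshold. The number of the 9 genes called changed by more than 1.5 times as follows, and the cause was not tested. With overall array signal as a covariate it was 1 for PEE, 0 for PH, 0 for TA, 1 for PH-TA, 0 for average PH, 0 for average TA, 0 for PH with TA and 0 for that interaction with minus without PEE. With normexp it was 5 for PEE, 1 for PH with TA, 2 for PEE added to PH-TA and 3 for the interaction by PEE. Without the filter on dim probes it was 0 for PH, 0 for TA, 1 for PH with TA, 3 for PEE added to PH-TA and 4 for the interaction by PEE. Quantile normalization gave 0 for PH, 0 for TA and 1 for PH with TA, and the authors' values gave 0 for TA and 1 for PH with TA. A trended robust prior gave 2 for PH, 3 for PEE added to PH-TA and 4 for the interaction by PEE. The mean of all probes gave 2 for each of the latter 2, and a fit of only the groups compared 0 for PH, 0 for TA, 3 for PEE-PH-TA and 1 for PEE added to TA.

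Each replicate number is 1 slide and 1 scan time. The deviations of same-numbered arrays correlated at -0.188 to 0.351 (median 0.103, against -0.0495 for different numbers), with 44 of 84 pairs over 0.1, and 19 of 24 arrays correlated best with their own number. With the replicate number as a block the number called was 0 for TA, 5 for average PH, 4 for PH with TA, 2 for PEE added to PH-TA and 2 for the interaction by PEE, and it stayed within 1.5 times elsewhere, where single calls still changed: PEE went from 3 to 2, and for PH Klk8 was called in place of Klk13.

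Leaving out 1 array, or 1 replicate number from all groups, gave 1 to 3 for PEE, 0 to 2 for PH, 0 to 1 for TA, 5 to 8 for PEE-PH, 4 to 9 for PEE-TA, 4 to 8 for PH-TA and 2 to 5 for PEE-PH-TA. For average PEE it gave 3 to 5, average PH 1 to 6, average TA 0 to 6, PH with TA 0 to 5, PEE added to PH 3 to 5, to TA 2 to 4 and to PH-TA 1 to 3, and the interaction by PEE 0 to 5. For PEE with PH and PEE with TA it stayed at 0. Without the filter the median of all genes was 0.12 for PEE, -0.19 for PEE-PH, -0.20 for PH-TA and 0.35 for the interaction by PEE. Klk14 is dim, and with normexp its called differences were 0.412 to 0.514 times as large.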
